A study of Mus musculus with 10 samples.

Results

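The liver X receptors and the genes of cholesterol efflux were followed in macrophages from mouse skin wounds and in cultured macrophages, as 10 genes taken by name from the 55414 genes of the deposited count tables. They are the receptor genes Nr1h3 (LXR alpha) and Nr1h2 (LXR beta), their partner Rxra, the exporters Abca1 and Abcg1, the lipoprotein genes Apoe and Pltp, the receptor regulator Mylip, and the lipid genes Lpcat3 and Srebf1. The rule is a list of names with no threshold on a value, drawn up with earlier results of these data known, and all 10 had enough counts to be tested in both models. The series set macrophages that had taken up apoptotic cells (Eff+) against those that had not (Eff-), both sorted by flow cytometry. Wound Eff+ and wound Eff- macrophages (3 libraries each) came from skin wounds collected on day 3 in LysMCreER/mTmG mice treated with tamoxifen for 6 days. In these mice a tamoxifen-activated Cre, driven from the lysozyme M locus of myeloid cells, turns a membrane tdTomato reporter into a GFP one, and both wound groups carry both alleles. Culture Eff+ and culture Eff- macrophages (2 libraries each) were wild-type bone marrow monocytes grown with GM-CSF for 7 days, and the labels of all 4 list a 12 h treatment with apoptotic fibroblasts.

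Liver X receptors are nuclear receptors that bind oxysterols, oxidised forms of cholesterol, and act as heterodimers with retinoid X receptors. Without a ligand the heterodimer holds corepressors, and with a ligand it recruits coactivators at paired hexamers called LXR response elements. A macrophage that digests an apoptotic cell takes in that cell's cholesterol, and the exporters and lipoprotein genes named above are textbook targets of the receptors, whose protein products move cholesterol and phospholipid out of the cell. SREBP2 drives the opposite arm, cholesterol synthesis and uptake, when membrane sterol is low.

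The tables hold raw counts of reads over exons. Libraries held 39735437 to 57308823 counts in the wound and 17622740 to 27261880 in culture, and the labels do not tie replicates to separate animals or cultures, so the p-values cover the spread between libraries, possibly a technical one. In the wound, Lyz2 had 159484 counts in the Eff+ library numbered 2 and 345046 in the Eff- library numbered 2, and 160 to 413 counts in the other 4. In culture, counts fell on 35649 genes in the Eff+ library 1 and 44836 in the Eff- library 1. They fell on 19649 genes in the Eff+ library 2 and 18171 in the Eff- library 2, so this number split by library number. The columns of the culture Eff- libraries include NOAC in their names, so it is unclear whether the culture Eff- cells had met apoptotic cells. The 15 macrophage markers, all detected in every library, took 2.18 to 2.67% of counts in wound Eff+ and 2.05 to 2.36% in wound Eff- libraries. This share is a sum over genes, and 13 of the 15 markers had a negative log2 fold change in wound Eff+ cells. Neutrophil markers (22 genes) took 3.14 to 3.88% in wound Eff+ and 0.551 to 1.03% in wound Eff- libraries. In sorted bulk samples, fewer cells of a type and less RNA per cell cannot be told apart.

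Promoter windows were searched for LXR elements, and those of 5 of the 10 genes are shown, a single window for each. Nr1h3, Apoe and Pltp are genes whose values the wound results turn on. Abca1 and Srebf1 had a match in the window shown. Nr1h3 and Apoe have further windows that are not shown. The windows are RefSeq sequences of GRCm38.p6, each 300 bases long and read 5′ to 3′ on the gene's strand, with 250 bases before the transcription start. Capitals mark the closest match to an LXR element written as AGGTCA, any 4 bases and AGGTCA, on either strand, where at most 3 of the 12 fixed bases differ. The Abca1 window is chr4:53159846-53160145, minus strand.
Abca1: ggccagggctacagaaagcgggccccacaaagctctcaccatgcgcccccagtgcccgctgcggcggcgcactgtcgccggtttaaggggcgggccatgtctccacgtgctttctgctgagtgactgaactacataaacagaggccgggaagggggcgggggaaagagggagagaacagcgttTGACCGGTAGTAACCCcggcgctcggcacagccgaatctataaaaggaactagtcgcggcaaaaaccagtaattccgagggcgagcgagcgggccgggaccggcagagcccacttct
The Srebf1 window is chr11:60210422-60210721, minus strand, the most downstream of 3 annotated starts and the only one of the 3 with such a match.
Srebf1: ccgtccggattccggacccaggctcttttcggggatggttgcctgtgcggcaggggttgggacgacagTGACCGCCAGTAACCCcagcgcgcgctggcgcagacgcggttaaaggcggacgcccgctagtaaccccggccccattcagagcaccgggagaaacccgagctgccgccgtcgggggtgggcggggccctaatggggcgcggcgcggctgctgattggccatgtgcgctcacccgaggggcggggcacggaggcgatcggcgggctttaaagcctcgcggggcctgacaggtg
The Nr1h3 window is chr2:91195067-91195366, minus strand.
Nr1h3: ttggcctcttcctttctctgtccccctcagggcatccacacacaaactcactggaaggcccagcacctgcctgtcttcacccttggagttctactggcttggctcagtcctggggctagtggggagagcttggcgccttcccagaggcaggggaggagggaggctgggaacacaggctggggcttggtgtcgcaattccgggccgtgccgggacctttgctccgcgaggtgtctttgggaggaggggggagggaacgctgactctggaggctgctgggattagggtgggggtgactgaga
The Pltp window is chr2:164857659-164857958, minus strand.
Pltp: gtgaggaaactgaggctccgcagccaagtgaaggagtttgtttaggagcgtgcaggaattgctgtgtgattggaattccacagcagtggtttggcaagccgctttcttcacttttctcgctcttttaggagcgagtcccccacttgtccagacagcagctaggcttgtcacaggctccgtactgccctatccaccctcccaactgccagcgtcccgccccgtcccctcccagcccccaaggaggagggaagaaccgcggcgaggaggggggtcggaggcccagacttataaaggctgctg
The Apoe window is chr7:19699139-19699438, minus strand.
Apoe: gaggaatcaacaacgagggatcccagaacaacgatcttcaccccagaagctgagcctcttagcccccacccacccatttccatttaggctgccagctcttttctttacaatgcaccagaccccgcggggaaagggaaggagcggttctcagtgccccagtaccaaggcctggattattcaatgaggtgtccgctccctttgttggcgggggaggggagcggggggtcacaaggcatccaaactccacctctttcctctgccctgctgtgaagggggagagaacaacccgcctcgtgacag

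Read in the direction of the element, which in both is opposite to the gene, the Abca1 site is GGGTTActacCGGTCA and the Srebf1 site is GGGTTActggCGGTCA. On the gene's strand, the capitals begin 67 bases before the transcription start in Abca1 and 182 bases before it in Srebf1. Both sites share their hexamers and differ in the spacer. Rxra carried a further match of this looseness at 1 of its 2 starts. Windows were found for 9 of the 10 genes, with 15 windows in all, and Abcg1 had no entry. With at most 2 mismatches on either strand, 0 of the 15 windows held the element, against 993 of all 32851 mouse windows (3.02%). With at most 3 mismatches it was 3 of 15, against 7189 of 32851 (21.9%). A match is a description of letters, not of binding.

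Wound Eff+ macrophages had less mRNA of the oxysterol receptor Nr1h3 and of the lipoprotein genes Apoe and Pltp than wound Eff- macrophages, each by more than 2-fold. The exporters Abca1 and Abcg1 did not pass the test, nor did Nr1h2, Rxra, Mylip, Lpcat3 or Srebf1. In edgeR's quasi-likelihood test with Benjamini-Hochberg adjustment at 0.05, 3 of the 10 genes were called lower and 0 higher, where 3.79% of all 14908 tested genes were called lower and 7.39% higher. At an unadjusted p under 0.05 they were 4 of the 10, with Rxra added, against 29.9% of all tested genes. The 10 genes had a median log2 fold change of -0.41, against -0.03 over all tested genes. In 5 of the 10 the groups did not overlap (4 with Eff+ below and 1 with Eff+ above), against 36.8% of all tested genes. Without the wound Eff+ library 2, edgeR called 0 genes in all (3260 at an unadjusted p under 0.05), so every wound call given here is lost without that library.

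**Figure D1:**
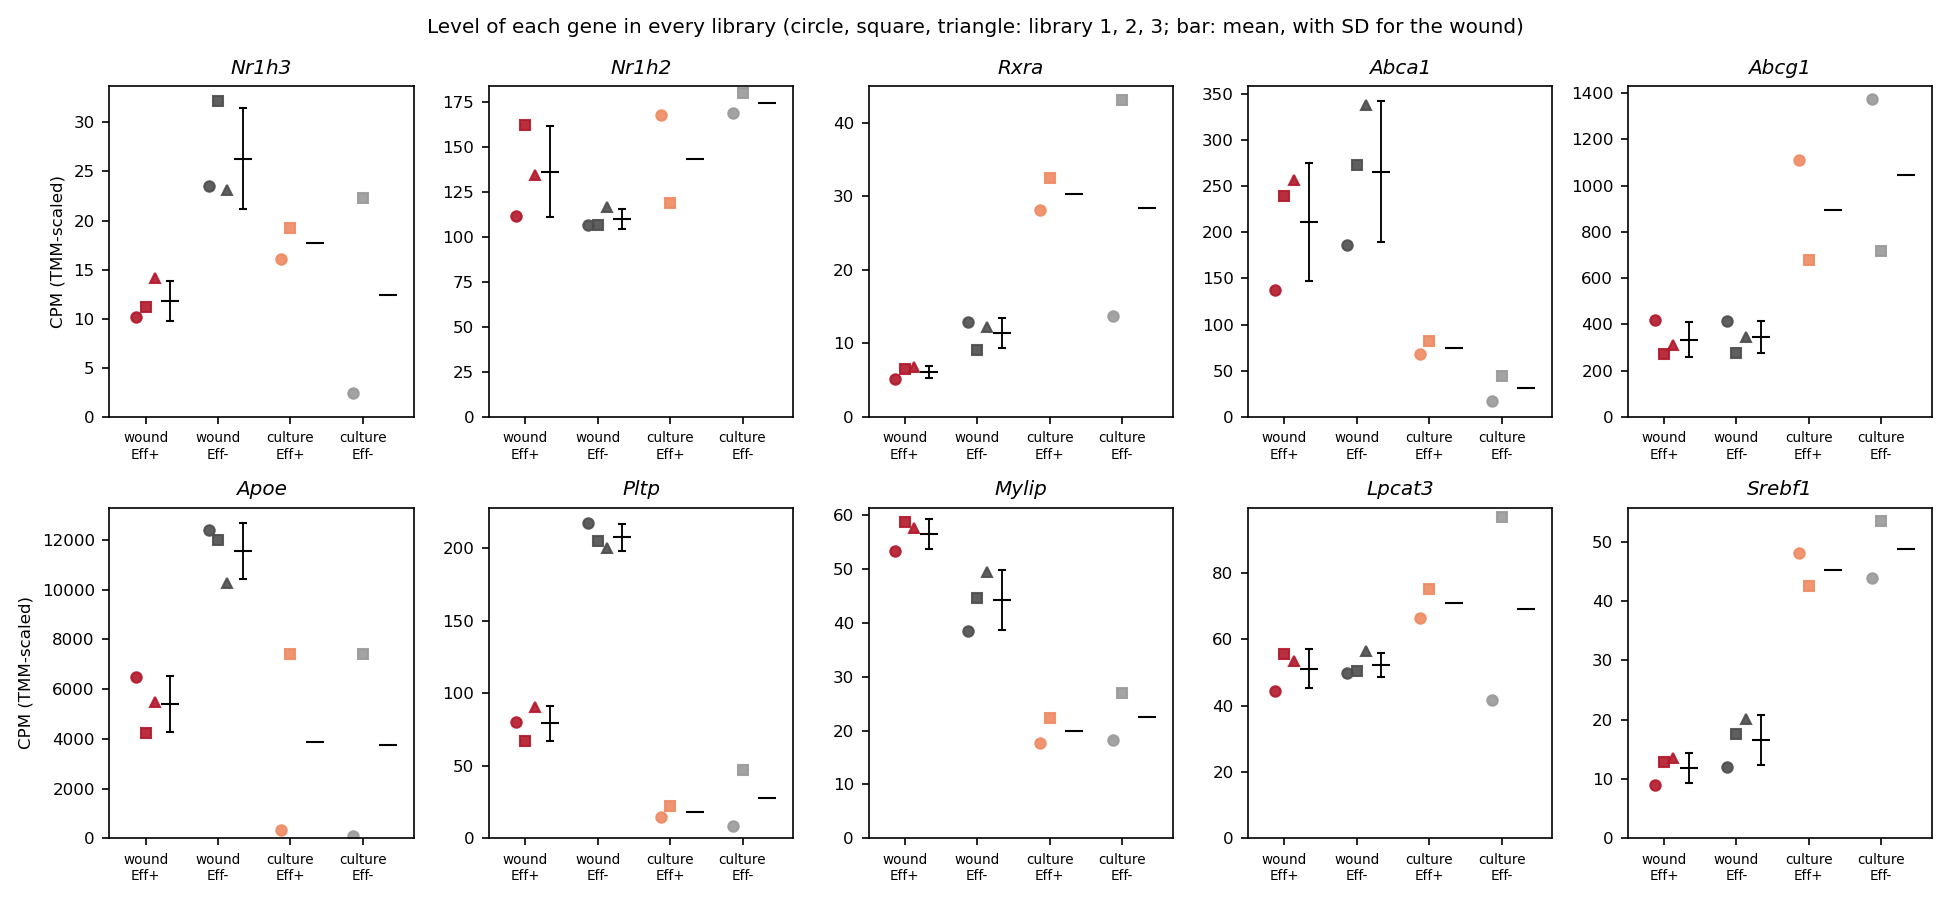
Normalised level (CPM, linear axis) of each of the 10 genes in every library, with Eff+ left of Eff- and the wound left of culture. Horizontal bars are group means, with the SD for the wound. In the wound, all Eff+ libraries lie below all Eff- libraries for Nr1h3, Rxra, Apoe and Pltp, and above them for Mylip.

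Nr1h3 (ENSMUSG00000002108, chr2:91014406-91033179 in GRCm39) encodes LXR alpha, the isoform enriched in macrophages, liver and fat. It had 10.2, 11.2 and 14.1 CPM (counts scaled to the size of the library) in wound Eff+ libraries, against 23.5, 32.2 and 23.1 CPM in wound Eff- libraries. No Eff+ library reached the lowest Eff- library. The level was 2.22-fold lower in Eff+ (log2 fold change -1.15 ± 0.22, SE, adjusted p = 0.0222 in edgeR). The call was lost when the Eff+ library 2 (adjusted p = 0.104), the Eff- library 1 (0.0549) or the Eff- library 2 (0.0890) was left out of the edgeR fit, with log2 fold changes of -1.30 to -1.0 over all 6 such fits.

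Nr1h2 (ENSMUSG00000060601, chr7:44199040-44203375) encodes LXR beta, which is found in most tissues. It had 112, 162 and 135 CPM in wound Eff+ libraries, against 107, 107 and 117 CPM in wound Eff- libraries. The groups overlapped through the lowest Eff+ library, and the log2 fold change was 0.31 with a 95% interval of -0.10 to 0.72 (adjusted p = 0.288 in edgeR). Because both receptors are read in the same library, their ratio does not depend on the scaling between libraries. Per kilobase of exon, Nr1h3 was 0.121, 0.0921 and 0.140 of Nr1h2 in wound Eff+ libraries, and 0.294, 0.403 and 0.264 of it in wound Eff- libraries. LXR beta transcripts were the more abundant in every library, and the ratio was 2.71-fold lower in Eff+ (log2 difference -1.44, between means of -3.11 ± 0.31 in Eff+ and -1.67 ± 0.32 in Eff-, SD, n = 3 each). The exact two-sided permutation test gave p = 0.1, the smallest that 3 against 3 libraries allow.

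**Figure D2:**
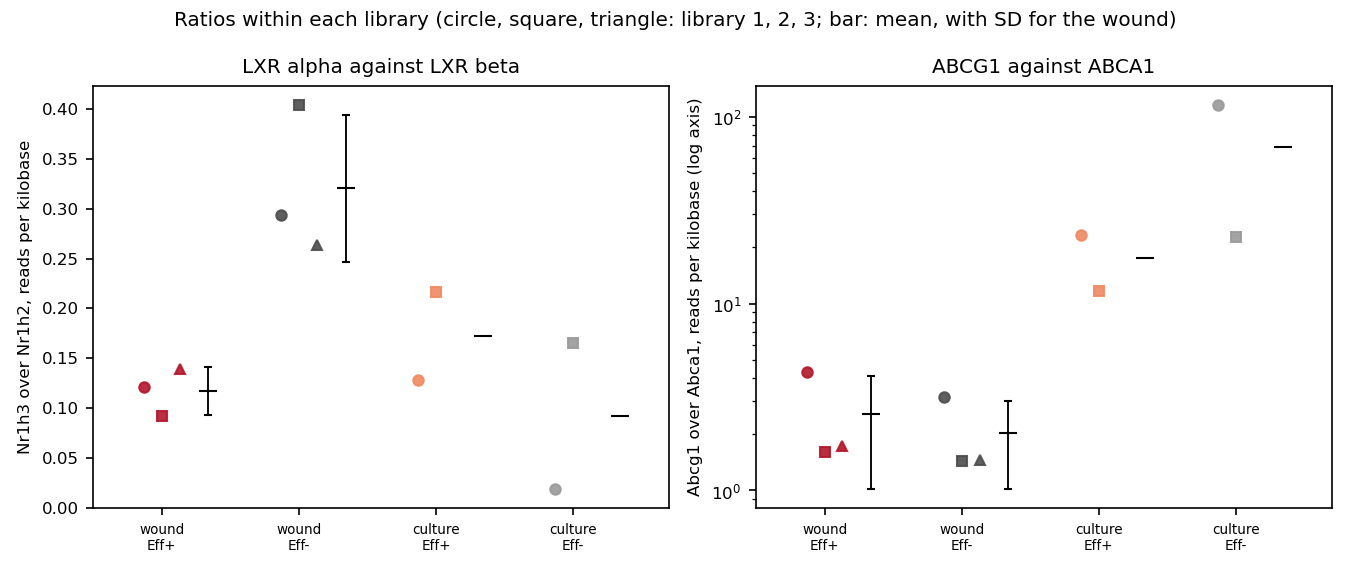
Ratio of Nr1h3 to Nr1h2 (left, linear axis) and of Abcg1 to Abca1 (right, log axis), both per kilobase of exon, in every library, with the group mean and, for the wound, its SD. The 3 wound Eff+ libraries lie at 0.0921 to 0.140 for the receptors, all under the wound Eff- libraries at 0.264 to 0.403.

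Rxra (ENSMUSG00000015846, chr2:27566452-27652969) encodes RXR alpha, the DNA-binding partner of both receptors. It had 5.18, 6.47 and 6.72 CPM in wound Eff+ libraries, against 12.9, 9.06 and 12.2 CPM in wound Eff- libraries. The groups did not overlap, but the test missed the threshold (log2 fold change -0.89 ± 0.25, SE, adjusted p = 0.0583 in edgeR). DESeq2 called it (adjusted p = 0.0193), as did edgeR with library totals alone (0.0161), a scaling that moved the median log2 fold change of all genes to -0.42.

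Among the secreted lipid carriers, Pltp (ENSMUSG00000017754, chr2:164681438-164699631) encodes phospholipid transfer protein, which passes phospholipid to high-density lipoprotein. Pltp had 80.3, 66.8 and 90.8 CPM in wound Eff+ libraries, against 218, 205 and 200.1 CPM in wound Eff- libraries. The highest Eff+ library lay under the lowest Eff- library by more than the whole spread within either group. The level was 2.62-fold lower in Eff+ (log2 fold change -1.39, 95% interval -1.78 to -1.0, adjusted p = 0.0097 in edgeR), and Pltp stood at place 51 of the 14908 tested genes by p. Among the fits without 1 library, the call was lost only without the Eff+ library 2 (adjusted p = 0.0576 in edgeR), and the log2 fold change lay between -1.5 and -1.28. Pltp shares 495 exon bases (19.3%) with Ctsa on the other strand, and the counts do not use strand, so part of its reads are uncertain. Ctsa, which encodes a lysosomal carboxypeptidase, had a log2 fold change of -0.63 ± 0.17 (SE, adjusted p = 0.0525 in edgeR).

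Apoe (ENSMUSG00000002985, chr7:19430034-19433113) encodes apolipoprotein E, the main apolipoprotein that macrophages secrete and an acceptor for exported cholesterol. Apoe had 6495, 4244 and 5496 CPM in wound Eff+ libraries, against 12398, 11995 and 10287 CPM in wound Eff- libraries. It was the most abundant of the 10 genes per length in every group mean, and the groups were far apart. The level was 2.14-fold lower in Eff+ (log2 fold change -1.10 ± 0.23, SE, adjusted p = 0.0248 in edgeR). Without the Eff+ library 2 or 3, or the Eff- library 1 or 2, the adjusted p in edgeR was 0.102, 0.0601, 0.0770 and 0.0840, and the log2 fold change lay between -1.25 and -0.95. With edgeR's newer quasi-likelihood settings it was 0.0505.

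The genes of the 2 exporters did not pass the test. Abca1 (ENSMUSG00000015243, chr4:53030787-53159895) encodes the transporter that loads cholesterol and phospholipid onto lipid-poor apolipoprotein A-I. It had 138, 239 and 257 CPM in wound Eff+ libraries, against 186, 273 and 338 CPM in wound Eff- libraries. The groups overlapped, and the log2 fold change was -0.33 with a 95% interval of -1.02 to 0.35 (adjusted p = 0.498 in edgeR). Abcg1 (ENSMUSG00000024030, chr17:31276649-31336962) encodes the transporter that passes cholesterol to mature high-density lipoprotein. It had 420, 271 and 311 CPM in wound Eff+ libraries, against 416, 276 and 345 CPM in wound Eff- libraries. These values nearly coincide, with a log2 fold change of -0.05 and a 95% interval of -0.58 to 0.49 (adjusted p = 0.916 in edgeR). In both groups the library numbered 1 had the least Abca1 and the most Abcg1. The ratio of Abcg1 to Abca1 per kilobase was 4.32, 1.61 and 1.72 in wound Eff+ libraries and 3.18, 1.43 and 1.45 in wound Eff- libraries.

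Mylip (ENSMUSG00000038175, chr13:45543218-45565498) encodes IDOL, a ubiquitin ligase that marks lipoprotein receptors for degradation. It had 53.4, 58.7 and 57.6 CPM in wound Eff+ libraries, against 38.4, 44.7 and 49.5 CPM in wound Eff- libraries. Mylip was the only one of the 10 genes with every Eff+ library above every Eff- library, a pattern held by 18.7% of all tested genes. Its log2 fold change of 0.36 missed the threshold (95% interval -0.01 to 0.72, adjusted p = 0.173 in edgeR), and it was -0.03 with library totals alone.

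Lpcat3 (ENSMUSG00000004270, chr6:124639990-124681381) encodes the acyltransferase that puts polyunsaturated chains into membrane phospholipid. Its 44.4, 55.5 and 53.5 CPM in wound Eff+ libraries lay among the 49.7, 50.5 and 56.3 CPM of wound Eff- libraries. The log2 fold change was -0.03 with a 95% interval of -0.39 to 0.33, and 334 of its exon bases (10.2%) overlap Emg1 on the other strand. Srebf1 (ENSMUSG00000020538, chr11:60089915-60113407) encodes SREBP1, the transcription factor of fatty acid synthesis. It had 8.91, 12.9 and 13.6 CPM in wound Eff+ libraries, against 12.0, 17.7 and 20.1 CPM in wound Eff- libraries. The groups overlapped (log2 fold change -0.49, 95% interval -1.12 to 0.13, adjusted p = 0.269 in edgeR). Srebf1 shares 175 exon bases (3.11%) with neighbouring genes, and Nr1h3 34 (1.35%).

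**Figure D3:**
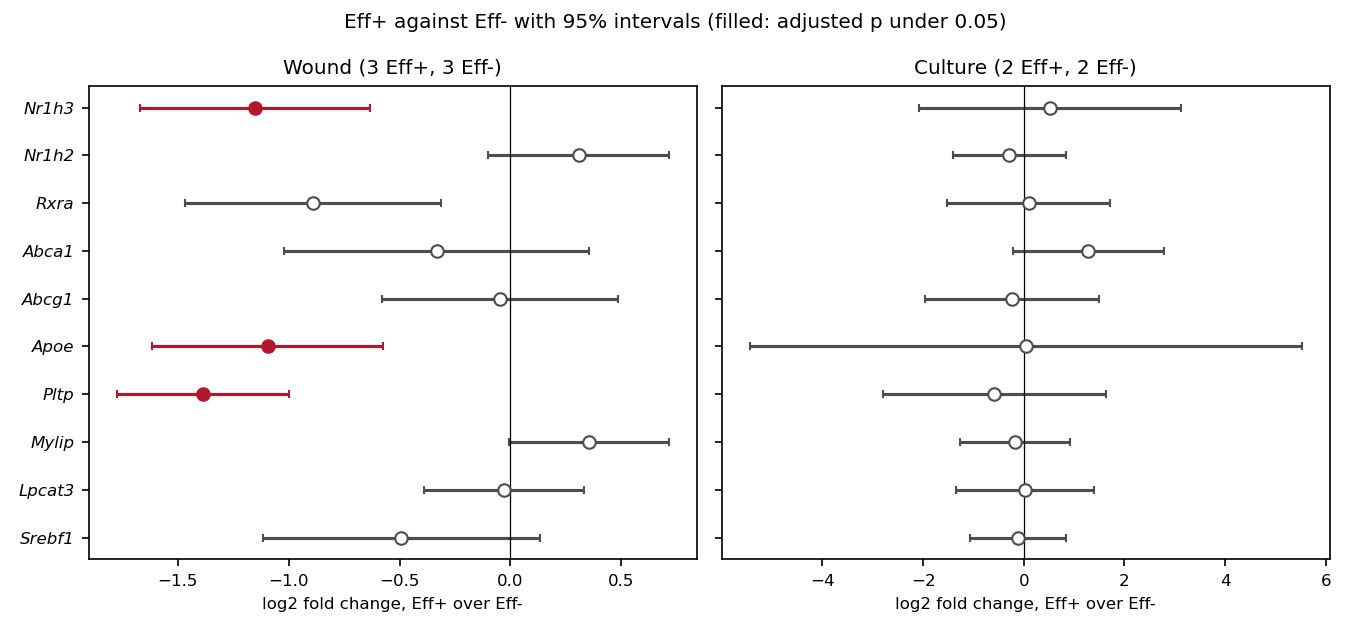
Log2 fold change of Eff+ over Eff- with its 95% interval for each of the 10 genes, in the wound (left) and in culture (right, wider axis). Filled points mark Nr1h3, Apoe and Pltp, the 3 genes with an adjusted p under 0.05 in the wound. None is filled in culture, where the interval of Apoe runs from -5.45 to 5.52.

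Neutrophil markers and macrophage markers moved with these calls. Of the neutrophil list, 15 of 20 tested genes rose in wound Eff+ cells and 0 fell (median log2 fold change 2.53), where 7.39% of all tested genes rose. Of the 15 macrophage markers 6 fell, where 3.79% of all tested genes fell. Among them were the complement genes C1qa (-1.19) and C1qb (-1.22) and the surface receptor genes Mrc1 (-1.03) and Adgre1 (-0.85). The 1 that rose was the co-receptor gene Cd14 (1.10). The macrophage markers had a median log2 fold change of -1.02, with 13 of the 15 negative. With library totals alone, 11 of the macrophage markers fell and 1 rose, where 17.8% of all tested genes fell. Without the Eff- library 2, 10 neutrophil markers rose and 0 macrophage markers were called, and without the Eff- library 1 these numbers were 14 risen and 1 fallen. Dendritic cell markers took 0.125 to 0.222% of counts in wound Eff+ and 0.232 to 0.413% in wound Eff- libraries. Of the 14 dendritic cell markers 0 were called, with 3 log2 fold changes positive, 11 negative and a median of -0.48. Fibroblast markers took 0.117 to 0.347% in wound Eff+ and 0.112 to 0.278% in wound Eff- libraries. Of 17 tested fibroblast markers 2 rose in wound Eff+ cells and 0 fell, Acta2 (log2 fold change 2.27) and Col6a3 (2.07), with 16 values positive, 10 at an unadjusted p under 0.05 and a median of 1.26. Keratinocyte markers took 0.00342 to 0.00584% in wound Eff+ and 0.000579 to 0.00194% in wound Eff- libraries, with 9 of the 12 markers, Krt5 and Krt14 among them, at 0 in every wound Eff- library. The part of these cells in the lower Nr1h3, Apoe and Pltp was not tested.

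Within a group, levels per length set the 10 genes in order. In wound Eff+ cells Apoe averaged 2531 RPKM (CPM divided by exon length in kilobases), followed by Abcg1 (45.8 RPKM), Nr1h2 (40.6 RPKM) and Pltp (31.0 RPKM), which overlapped from neighbour to neighbour. Abca1 (20.4 RPKM), Mylip (17.5 RPKM) and Lpcat3 (15.6 RPKM) came next, likewise overlapping, then Nr1h3 (4.70 RPKM), Srebf1 (2.09 RPKM) and Rxra (0.971 RPKM), each apart from its neighbours. In wound Eff- cells Pltp stood second, at 81.0 RPKM, apart from Apoe above it (5407 RPKM) and Abcg1 below it (47.3 RPKM). Nr1h3, at 10.5 RPKM there, overlapped Mylip (13.7 RPKM). Srebf1 (2.95 RPKM) and Rxra (1.80 RPKM) were again the lowest.

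**Figure D4:**
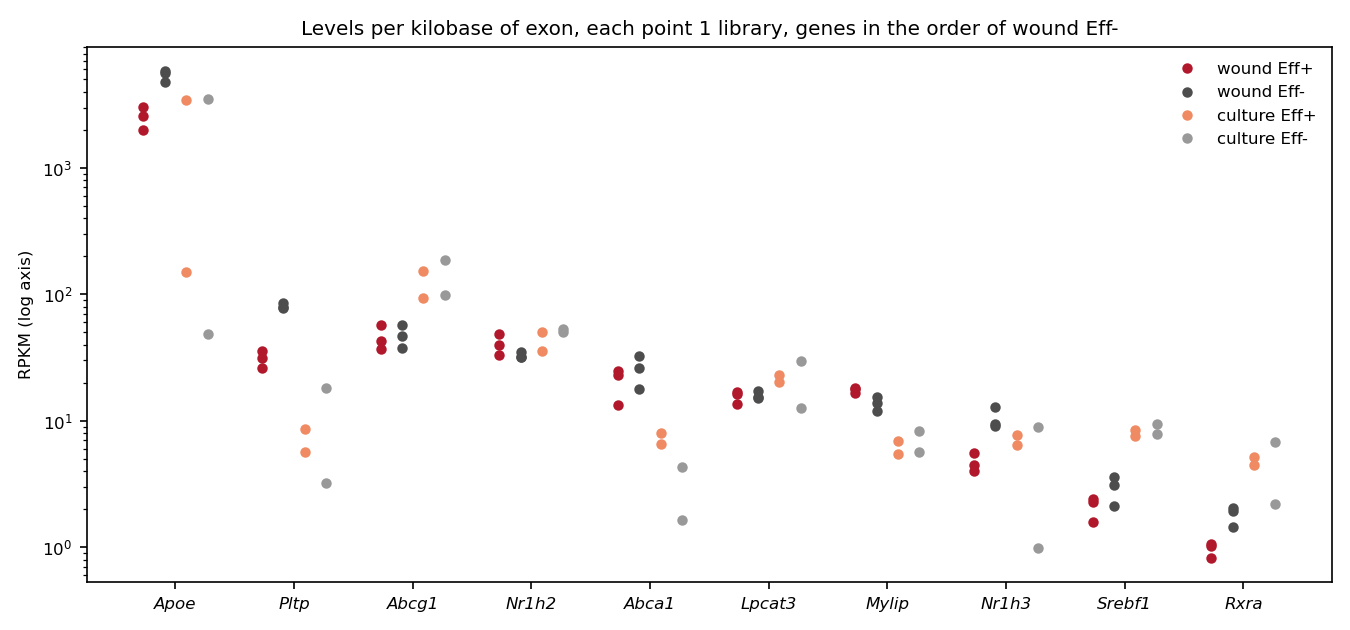
Level per length (RPKM, log axis) of the 10 genes, with a point for each library. Apoe is highest and Rxra lowest in both wound groups, and Pltp averages 31.0 RPKM in wound Eff+ and 81.0 RPKM in wound Eff- cells.

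The genes whose levels ran most like Nr1h3 over the 6 wound libraries, by Pearson correlation of log2 CPM among 8146 genes with a mean of at least 5 CPM, were Nsmf (r = 0.996), Ap2a2 (0.995), Rnaseh1 (0.993), Hebp1 (0.991) and Ddost (0.991). All 5 had lower means in wound Eff+ libraries. Pltp (r = 0.945) stood at place 254 of that order and Apoe (r = 0.889) at place 760, while Mylip (r = -0.76) and Nr1h2 (r = -0.61) ran against Nr1h3. These are descriptions of 6 libraries that fall into 2 groups and share their scaling.

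The machinery around the receptors was read from a list of 18 nuclear receptors and coregulators, of which 16 were tested in the wound. In wound Eff+ cells 3 rose and 1 fell, 25% of those tested where 11.2% of all tested genes were called, and the median log2 fold change was -0.00. Ncor1, a corepressor held by unliganded receptors, had 78.6, 74.3 and 77.5 CPM in wound Eff+ libraries, against 52.9, 41.1 and 48.3 CPM in wound Eff- libraries (log2 fold change 0.69 ± 0.15, SE, adjusted p = 0.0305 in edgeR). Tbl1xr1, a subunit of the same corepressor complex, rose by 0.58 ± 0.15 (adjusted p = 0.0432), and Ncoa2, a p160 coactivator, by 1.32 ± 0.23 (adjusted p = 0.0151). So genes of both corepressor and coactivator proteins were among those that rose. The gene that fell was Nr1d2, which encodes the haem-binding repressor REV-ERB beta, with 10.4, 12.3 and 13.5 CPM in wound Eff+ libraries and 27.5, 31.5 and 25.0 CPM in wound Eff- libraries (-1.21 ± 0.19, adjusted p = 0.0129 in edgeR). Ncor1 lost its call without any 1 of the 6 libraries (adjusted p 0.0553 to 0.127 in edgeR), as did Tbl1xr1 (0.0784 to 0.156). With library totals alone their log2 fold changes were 0.31 and 0.19, neither called. Ncoa2 lost its call also without the Eff- library 1 (0.0554) or 2 (0.0651), and Nr1d2 without the Eff- library 2 (0.0644).

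None of the 19 tested genes among the other LXR targets passed the test in edgeR, where 11.2% of all tested genes did. At an unadjusted p under 0.05 there were 8, against 29.9% of all tested genes. DESeq2 called 3 and limma-voom 0, where they called 21.1% and 13.2% of all tested genes. With a replicate block edgeR called 7 (1 higher and 6 lower), where it called 20% of all tested genes, 8.51% lower. With library totals alone it called 5, all lower, where it called 17.8% of all tested genes lower. In the main fit the median log2 fold change of the 19 was -0.43, against -0.03 over all tested genes. The smallest p belonged to Cd5l, a macrophage-secreted scavenger protein gene (log2 fold change -2.25 ± 0.66, SE, adjusted p = 0.0653 in edgeR), and to Elovl5, a fatty acid elongase gene (-0.55 ± 0.18, adjusted p = 0.0816).

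Genes of cholesterol uptake, storage and oxysterol production gave 4 lower and 0 higher of 22 tested in the wound (18.2% called, against 11.2% of all tested genes called and 3.79% called lower; median log2 fold change -0.26). With a replicate block 7 were lower and 1 higher, where 8.51% of all tested genes were called lower. With library totals alone 8 were lower, where 17.8% of all tested genes were called lower. Lrp1, which encodes a large receptor for lipoproteins that carry apolipoprotein E, had 53.9, 70.7 and 105.9 CPM in wound Eff+ libraries, against 132.0, 150.4 and 168.6 CPM in wound Eff- libraries (log2 fold change -0.97 ± 0.26, SE, adjusted p = 0.0494 in edgeR). Npc2, the lysosomal carrier that hands cholesterol to NPC1, fell by 0.76 ± 0.20 on the log2 scale (adjusted p = 0.04997), and Nceh1, a hydrolase of stored cholesteryl ester, by 0.65 ± 0.16 (adjusted p = 0.0426). Lrp1, Npc2 and Nceh1 did not overlap between the groups, but none of them held its call throughout when libraries were left out. Nceh1 lost it without any 1 of the 6 libraries (adjusted p 0.0763 to 0.128 in edgeR), Lrp1 without each but the Eff+ library 3 (0.0767 to 0.181), and Npc2 without each but the Eff+ library 1 (0.0763 to 0.175). Under relative log expression scaling Lrp1 (0.0542), Npc2 (0.0611) and Nceh1 (0.0519) missed the threshold. Of the 15 tested SREBP2 pathway genes 0 were called in edgeR, DESeq2 or limma-voom, with 1 at an unadjusted p under 0.05 in edgeR. Their median log2 fold change was 0.06. With library totals alone edgeR called 3 of them lower, where it called 17.8% of all tested genes lower. The median was then -0.33, against -0.42 over all tested genes. With a replicate block edgeR called 0 of the SREBP2 pathway genes. There 5 of them had an unadjusted p under 0.05, as did 5297 of all 14908 tested genes. Insig1, which holds SREBP in the endoplasmic reticulum, had a log2 fold change of -0.33 ± 0.15 (SE, adjusted p = 0.184 in edgeR).

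**Figure D5:**
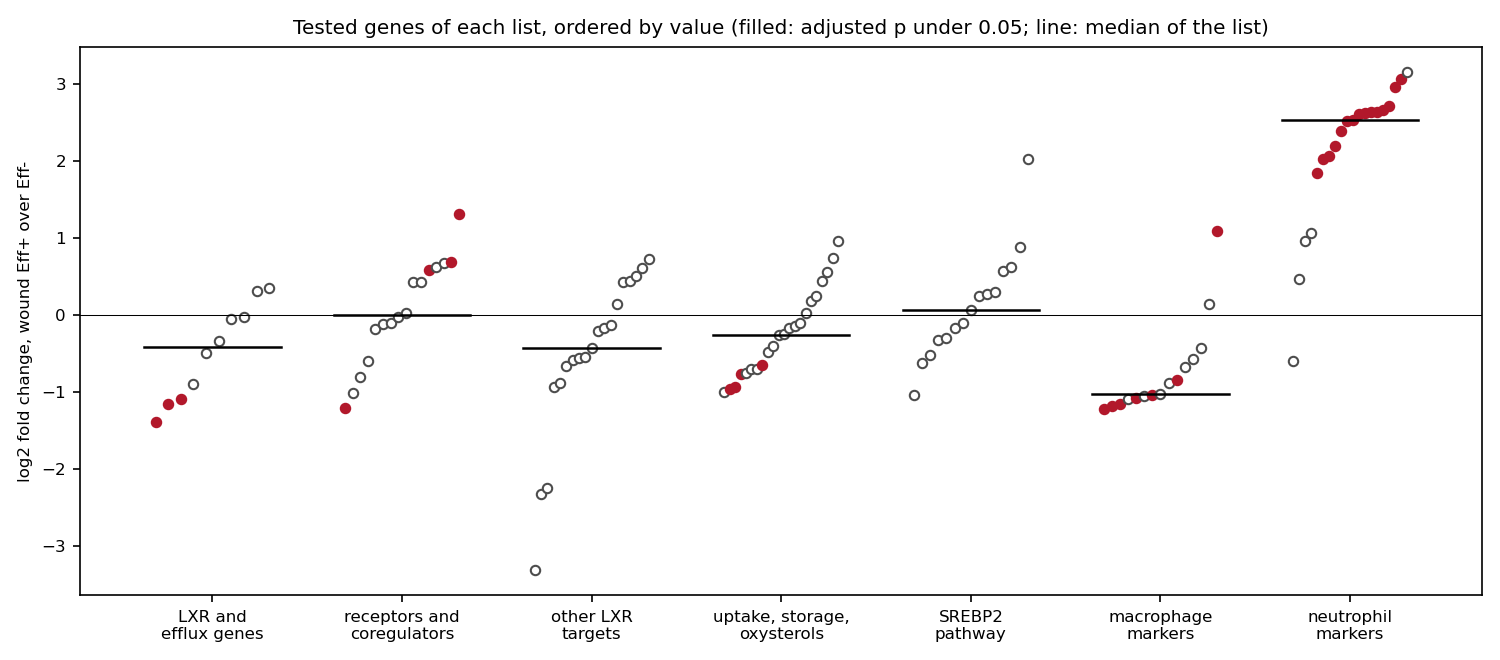
Log2 fold change of wound Eff+ over wound Eff- for each tested gene of the 10, of the 4 surrounding lists and of the macrophage and neutrophil markers, with called genes filled and the list median as a line. The medians lie at -0.41 for the 10 genes, -0.00 for receptors and coregulators, -0.43 for other targets and -0.26 for uptake and storage genes. They lie at 0.06 for SREBP2 pathway genes, -1.02 for macrophage markers and 2.53 for neutrophil markers.

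In culture, none of the 10 genes passed the test, which with 2 libraries a group does not show that the groups were alike. There edgeR called 0 of 14867 genes (0%), with 115 (0.774%) at an unadjusted p under 0.05, DESeq2 called 2 and limma-voom 0. The 10 genes had 0 calls in all of these, 0 with an unadjusted p under 0.05 in edgeR, and a median log2 fold change of -0.04, against -0.05 over all tested genes. Groups were apart in 2 of the 10, 1 in each direction, where 20.7% of all tested genes were apart (11.3% with Eff+ above and 9.42% with Eff+ below).

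Abca1 had the largest culture difference of the 10, with 67.8 and 82.4 CPM in culture Eff+ libraries, against 17.0 and 44.7 CPM in culture Eff- libraries. Both Eff+ libraries lay above both Eff- libraries, with a log2 fold change of 1.28 (95% interval -0.21 to 2.78, unadjusted p = 0.0778 and adjusted p = 1 in edgeR). Nr1h2 lay the other way, with 168 and 119 CPM in culture Eff+ libraries and 169 and 180 CPM in culture Eff- libraries (log2 fold change -0.28 ± 0.44, SE). The first values of the 2 groups nearly touch.

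The culture Eff- library 1 stood apart for several of the genes. Nr1h3 had 16.1 and 19.3 CPM in culture Eff+ libraries, against 2.47 and 22.3 CPM in culture Eff- libraries. Apoe had 322 and 7416 CPM in culture Eff+ libraries, against 103 and 7427 CPM in culture Eff- libraries, so that the number of the library separated its values more than uptake did. Pltp had 14.6 and 22.1 CPM in culture Eff+ and 8.30 and 46.9 CPM in culture Eff- libraries, and Rxra 28.2 and 32.6 CPM in culture Eff+ and 13.7 and 43.1 CPM in culture Eff- libraries. In each of these the culture Eff- library 1 was the lowest of the 4 and the culture Eff- library 2 the highest. Macrophage markers took 0.552 and 0.894% of counts in culture Eff+ libraries, and 0.303 and 0.871% in culture Eff- libraries. Dendritic cell markers took 0.0762 and 0.0627% in culture Eff+ and 0.194 and 0.0941% in culture Eff- libraries. The part of either in these values was not tested.

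In the other 4 genes the culture groups overlapped as well. Abcg1 had 1109 and 678 CPM in culture Eff+ libraries and 1375 and 717 CPM in culture Eff- libraries, again with more in library 1. Mylip had 17.7 and 22.3 CPM in culture Eff+ and 18.3 and 26.9 CPM in culture Eff- libraries. Lpcat3 had 66.4 and 75.3 CPM in culture Eff+ and 41.6 and 96.9 CPM in culture Eff- libraries. Here too the culture Eff- library 1 was the lowest of the 4 and the culture Eff- library 2 the highest. Srebf1 had 48.0 and 42.6 CPM in culture Eff+ and 43.9 and 53.6 CPM in culture Eff- libraries.

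The surrounding lists had 0 calls in culture in edgeR, DESeq2 and limma-voom (16, 16, 21 and 14 genes tested). In edgeR, 2 of those genes had an unadjusted p under 0.05, Cd36 among them. Cd36, a scavenger receptor gene for oxidised lipid and apoptotic cells, had 1394 and 1801 CPM in culture Eff+ libraries, against 357 and 549 CPM in culture Eff- libraries (log2 fold change 1.82 ± 0.63, SE, unadjusted p = 0.0342, adjusted p = 1 in edgeR). Further genes of smallest p in their lists were Ncoa3 (-0.80), Ncor1 (-0.53), Lpl (1.37), Fads2 (-1.45), Cyp27a1 (-1.44) and Insig1 (-0.87), all with adjusted p = 1 in edgeR.

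Wound and culture libraries were also set against each other, as a description of levels scaled separately within each model and with no test. Abca1 was higher in the wound in both sorts, 2.81-fold among Eff+ and 8.63-fold among Eff- cells by the means, and so was Pltp, 4.31-fold and 7.53-fold. Abcg1 was higher in culture, 2.67-fold among Eff+ and 3.03-fold among Eff- cells, as were Srebf1 (3.84-fold and 2.94-fold) and Rxra (4.96-fold and 2.50-fold). The ranges of wound and culture libraries did not overlap in either sort for these 5 genes, nor for Mylip or Nr1h3. The share of all tested genes with ranges apart was not computed, so this is not shown to be particular to these genes. Mylip was 2.82-fold and 1.96-fold higher in the wound among Eff+ and Eff- cells. Nr1h3 had means of 11.8 CPM in wound Eff+ and 17.7 CPM in culture Eff+ cells, and of 26.3 CPM in wound Eff- and 12.4 CPM in culture Eff- cells. Per kilobase, Abcg1 was 23.2 and 11.7 times Abca1 in culture Eff+ libraries and 115 and 22.8 times it in culture Eff- libraries. Nr1h3 was 0.128 and 0.216 of Nr1h2 per kilobase in culture Eff+ libraries and 0.0195 and 0.165 of it in culture Eff- libraries.

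Whether uptake went with a different change in the wound than in culture was tested as an interaction over all 10 libraries. In edgeR 0 of 20270 genes were called (0%), with 2222 (11%) at an unadjusted p under 0.05, and DESeq2 called 797. None of the 10 genes was called by either tool. In edgeR the median wound effect minus culture effect was 0.32 on the log2 scale over all tested genes, with 58.6% positive. Over the 10 genes the median was -0.58. Abca1 had the smallest p of the 10, with a wound effect minus culture effect of -1.60 ± 0.63 on the log2 scale (SE, unadjusted p = 0.0283, adjusted p = 0.40 in edgeR). The difference for Nr1h3 was -1.65 ± 0.91 (adjusted p = 0.53), for Pltp -0.78 and for Apoe -1.10 ± 1.82. The values moved with single culture libraries. For Apoe the difference was 2.46 without the culture Eff+ library 2 and -0.15 without the culture Eff- library 1, neither called. Without the culture Eff- library 2 that group is the Eff- library 1 alone, which stood apart above, and the fit assumes that it varies like the other groups. That fit called 2009 of 23641 genes in edgeR (8.5%, with 4.77% lower), among them Nr1h3 (-4.03), Rxra (-2.07), Abca1 (-2.52), Apoe (-6.35) and Pltp (-2.57), all with a lower effect in the wound.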

How the data were processed

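Raw counts per gene, deposited by the authors, were used. Per the file headers, wound reads were counted with featureCounts 1.6.0 over Ensembl release 106 exons (GRCm39), with no strand option. The submitters' processing notes name Trimmomatic 0.39. No aligner is named in the sources used here. The culture table records no counting command, and 4 of its columns matched no sample and were not used. GENCODE vM21 named 52081 of 55414 genes (99.91% of counts). Samples were grouped by title.

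Each model was fitted with edgeR 4.0.16 (R 4.3.3): filterByExpr, TMM scaling, the quasi-likelihood test without covariates, Benjamini-Hochberg adjustment over all tested genes and a threshold of 0.05. A standard error is the log2 fold change over the square root of F. CPM use TMM-scaled totals, and RPKM divide them by exon length. The models share no library. Replicates differed beyond sampling noise (chi-square per degree of freedom 78.9 to 460). The procedure was tested on counts simulated from the means and spread of these data, with 100 genes changed 2-fold and 100 changed 4-fold. The wound fit recovered 9 of the 2-fold and 66 of the 4-fold changes. Only those genes were changed, while the fit of the real wound libraries called 1666. The adjustment was therefore stricter in the simulation, and recovery in the real wound fit may be higher. The culture fit and the fit of the difference recovered 0 of either. A gene that did not pass the test may therefore still differ.

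The 10 genes, the 4 pathway lists and the marker lists were chosen with earlier results of these data known. Of each pathway list, the genes named are up to 4 called in each direction by smallest p or, with none called, the 2 of smallest p, and the 5 genes most like Nr1h3 were named. A few genes that this rule names are not reported here. Alternatives were other scalings and filters, DESeq2 1.42.0, limma-voom (limma 3.58.1), robust and newer quasi-likelihood settings, a replicate block, marker genes left out, and libraries left out.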

Additional observations from a re-analysis of the deposited data

Results flagged for a closer look

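Cd5l, a listed LXR target that encodes a secreted macrophage scavenger protein, had values that lay in opposite directions in the models, but neither comparison passed the test. It had 3.48, 0.986 and 0.991 CPM in wound Eff+ libraries, against 12.95, 3.58 and 9.50 CPM in wound Eff- libraries. In culture it had 1.89 and 1.495 CPM in Eff+ libraries, against 0.808 and 1.04 CPM in Eff- libraries. The log2 fold change was -2.25 ± 0.66 in the wound (SE, adjusted p = 0.0653 in edgeR) and 0.87 ± 0.91 in culture (adjusted p = 1). All wound Eff+ libraries lay below, and all culture Eff+ libraries above, the Eff- libraries of their model. The wound effect minus the culture effect was -3.10 on the log2 scale, which did not pass the test of the difference (adjusted p = 0.323 in edgeR over all 10 libraries).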

How the results depend on the processing

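Log2 fold changes of Nr1h3, Apoe, Pltp and Rxra in the wound stayed negative under every alternative run. Genes called in the wound numbered 1666, and 3368 with library totals alone (21.2% of them higher, against 66.1%; median log2 fold change over all genes -0.42, against -0.03), 3150 in DESeq2, 2985 with a replicate block, 751, 0 and 0 without both libraries numbered 1, 2 or 3, and 0 to 1347 without 1 library (0 without Eff+ 2, 189 without Eff- 2, 451 without Eff- 1). Of the 10 genes 3 were called lower, 4 with totals alone or DESeq2, 1, 0 and 0 without both libraries numbered 1, 2 or 3, and 0 to 3 without 1 library. Culture calls numbered 0, 2 with no filter, 2 in DESeq2, 48 with the block and 0 to 27 without 1 library. Calls of the difference numbered 0, 517 with no filter, 797 in DESeq2, 441 with the block and 0 to 2009 without 1 library. Same-numbered wound libraries correlated in their deviations at 0.41, 0.0173 and 0.234, and differently numbered ones at -0.348 to 0.152. No label pairs the libraries. The replicate block changed no call of the 10 genes. Promoter matches numbered 0 with at most 2 mismatches, and 3 with at most 3.

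Values near 0 changed sign: in the wound, Nr1h2 (-0.089) and Mylip (-0.034) with totals alone, Abcg1 without both libraries numbered 3 (0.032), and Lpcat3 with relative log expression scaling (0.0051), DESeq2 (0.0052) or without both libraries numbered 1 (0.014) or 3 (0.037). In culture they were Abcg1 (0.11), Mylip (0.026) and Srebf1 (0.12) with no filter, and Lpcat3 with relative log expression (-0.0060) and DESeq2 (-0.0060). For the difference they were Abcg1 with totals alone (-0.017) and Lpcat3 with relative log expression (0.056), upper quartile (0.031), at least 1 CPM (0.052) and DESeq2 (0.056). Without 1 library, Abcg1 ranged from -0.25 to 0.087 and Lpcat3 from -0.093 to 0.063 in the wound. In culture Nr1h3 ranged from -0.30 to 3.13, Nr1h2 from -0.52 to 0.054, Rxra from -0.47 to 1.44, Abcg1 from -0.59 to 0.35, Apoe from -3.57 to 5.53, Pltp from -1.32 to 1.44, Mylip from -0.39 to 0.42, Lpcat3 from -0.42 to 1.06, Srebf1 from -0.21 to 0.33, Ncor1 from -0.72 to 0.17, Ncoa3 from -1.25 to 0.44, Fads2 from -1.95 to 0.53 and Cyp27a1 from -2.38 to 0.24. The difference ranged from -0.38 to 0.57 for Abcg1, -6.35 to 2.46 for Apoe and -0.83 to 0.41 for Lpcat3. The causes of these changes were not tested. With 2 libraries a group, the 0 culture calls do not show that the genes were alike.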
